A study of Mus musculus with 6 samples.

Results

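The cytochrome P450 genes of the families Cyp1, Cyp2 and Cyp3 are described here in the liver of marathon mice (DUhTP) and control mice (DUC). Their enzymes carry out much of the hepatic oxidation of drugs and also act on some steroids and fatty acids. Members were the probe sets of the Affymetrix mouse genome array that are annotated with exactly 1 gene symbol, where that symbol begins with Cyp1a, Cyp1b, Cyp2 or Cyp3 but not with Cyp2b, Cyp26 or Cyp27. The rule found 45 probe sets of 38 genes among 22626 probe sets tested, which represent 12393 genes. Of these, 40 probe sets and 35 genes belong to the 3 families proper. The letters of the rule also caught 5 probe sets of 3 genes from other families, namely Cyp39a1, Cyp21a1 and Cyp24a1, and these are reported separately. The reductase Por, which the rule also names, had 0 probe sets with 1 symbol and was not analysed here.

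Each line was measured on 3 arrays, and all 6 arrays carried liver RNA from male mice aged 70 days. Both lines come from one non-inbred stock made by crossing 4 outbred lines (NMRI orig., Han:NMRI, CFW, CF1) with 4 inbred lines (CBA/Bln with AB/Bln, and C57BL/Bln with XVII/Bln). DUhTP had been bred over many generations for treadmill endurance, without training, and DUC is the unselected line beside it. With 1 selected and 1 control line, effects of selection and of drift cannot be told apart. The labels speak of a single mouse per array whereas the study's methods speak of RNA pools, so p-values measure the spread between arrays only. Values are PLIER intensities, a linear probe set signal in arbitrary units that can be compared between arrays for 1 probe set but not between probe sets.

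P450s are heme proteins of the endoplasmic reticulum that take electrons from NADPH through Por and insert oxygen into lipophilic substrates. In liver they are expressed mainly by hepatocytes, many of them around the central vein, and their transcription responds to the receptors AHR, CAR (Nr1i3) and PXR (Nr1i2) as well as to growth hormone. Rodent Cyp2c, Cyp2d, Cyp2j and Cyp3a genes lie in tandem clusters of closely related copies, so a short probe can also catch a neighbour's transcript, and how much it did was not tested.

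The arrays resembled each other, with median intensities of 53.1 to 57.0 and correlations of log2 intensity no lower than 0.950 between any pair. All 7 hepatocyte markers were bright, with summed intensities of 76838 to 78723 in DUhTP and 82762 to 85799 in DUC. The markers did not share this difference evenly. Tat averaged 3873 in DUhTP and 7110 in DUC, Cps1 8284 and 10392, and Hpd 11468 and 12506. Alb, Apoa1, Apoh and Ttr had log2 fold changes (DUhTP minus DUC) between -0.03 and 0.07 on their brightest probe sets. The 4 kidney, 2 adipose and 2 lung markers measured were under 100 on every array. Exocrine pancreas markers differed most between arrays, from 942 to 3364 in DUhTP and from 3623.5 to 6817 in DUC. Of these 6 pancreas markers 0 were called by limma as deposited (3 at an unadjusted p under 0.05), and 2 fell with 16 added. Marker genes that did pass were Clec4f (Kupffer cells, 1 of 8 markers), Col3a1 (stellate cells, 1 of 6) and Alas2 (erythroid cells, 1 of 2), which rose in DUhTP, and the hepatocyte marker Tat, which fell. With 16 added 3 Kupffer cell and leukocyte markers were higher and 1 lower, and 1 endothelial marker was higher. As deposited, of 6 endothelial and 4 cholangiocyte markers 0 were called by limma (1 and 0 at an unadjusted p under 0.05). The part of other cell types in the P450 values was not tested. Intensities of bulk liver cannot tell fewer cells of a type from less RNA per cell.

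In DUhTP mice 3 of the 38 genes rose and 3 fell (limma, adjusted p under 0.05 over all tested probe sets). Cyp3a13, Cyp2c55 and Cyp2c70 were higher with fold changes (FC, negative where DUhTP is lower) of 2.55, 2.36 and 1.75. Cyp2c39, Cyp2d13 and Cyp2c38 were lower with FC -2.17, -1.79 and -1.57. P450s usually taken to characterise liver, such as Cyp2e1, Cyp3a11, Cyp2d9 and Cyp2a12, did not pass the test. The 6 called probe sets make 13.3% of the 45, whereas 2.41% of all tested probe sets were called (1.36% higher, 1.05% lower). By genes, 6 of 38 stand beside 3.32% of all genes (11.3% with 16 added).

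The calls depend on the scale. With 16, a constant often used with PLIER, added to every intensity, 9 member probe sets of 8 genes passed. Those added were Cyp2c68, higher in DUhTP, and Cyp39a1 and the second Cyp2d13 probe set, both lower, beside a background of 8.62% (3.92% higher, 4.70% lower). Requiring FC over 2 as well left Cyp3a13, Cyp2c55 and Cyp2c39 (background 1.45%). At an unadjusted p under 0.05, 14 member probe sets would count, 9 higher and 5 lower, beside 21.1% of all probe sets. The arrays of both lines did not overlap for 20 member probe sets (44.4%), 13 higher and 7 lower in DUhTP. Over all probe sets that share was 29.4%, made of 13.6% higher and 15.8% lower.

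**Figure D1:**
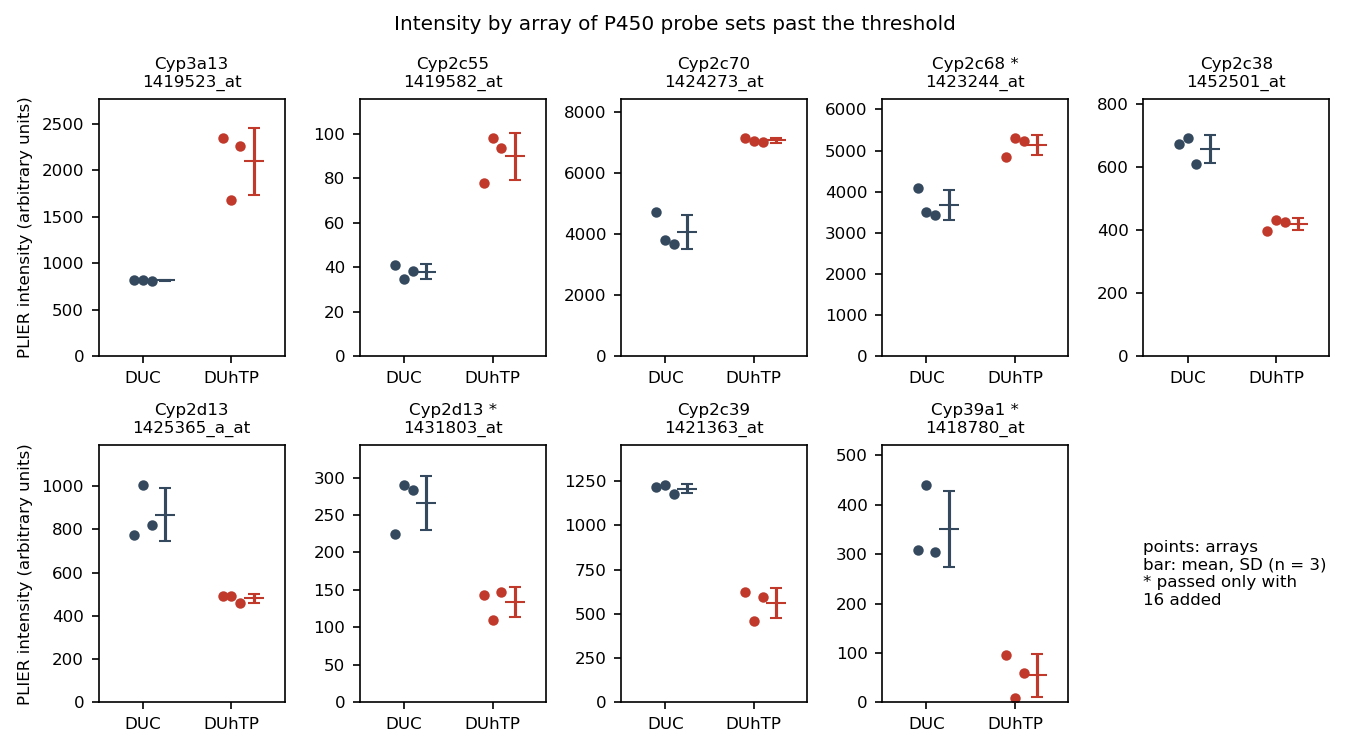
Intensity (PLIER, arbitrary units, axes from 0) in each of the 3 DUC and 3 DUhTP arrays for the 9 P450 probe sets past the threshold. Points are arrays, the bar gives mean and SD, and an asterisk marks the probe sets that passed only with 16 added; in every panel the points of the lines do not overlap.

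The Cyp2c subfamily, whose members make epoxides and hydroxylated products of arachidonic acid and modify drugs and bile acids, moved in both directions. Of its 11 genes, 2 rose, 2 fell and 7 did not pass the test. Their median log2 fold change was 0.10, within a range of -1.12 to 1.24 and beside -0.02 over all tested probe sets. Without DUhTP array 3 that median was 0.26. Along chromosome 19 the RefSeq map gives the measured genes in the order Cyp2c55, Cyp2c65, Cyp2c29, Cyp2c39 and Cyp2c38, Cyp2c68, Cyp2c37, Cyp2c54, Cyp2c50 and Cyp2c70, with Cyp2c23 farther off. The highest values lie at both ends of the cluster and the lowest at the adjoining pair Cyp2c39 and Cyp2c38.

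**Figure D2:**
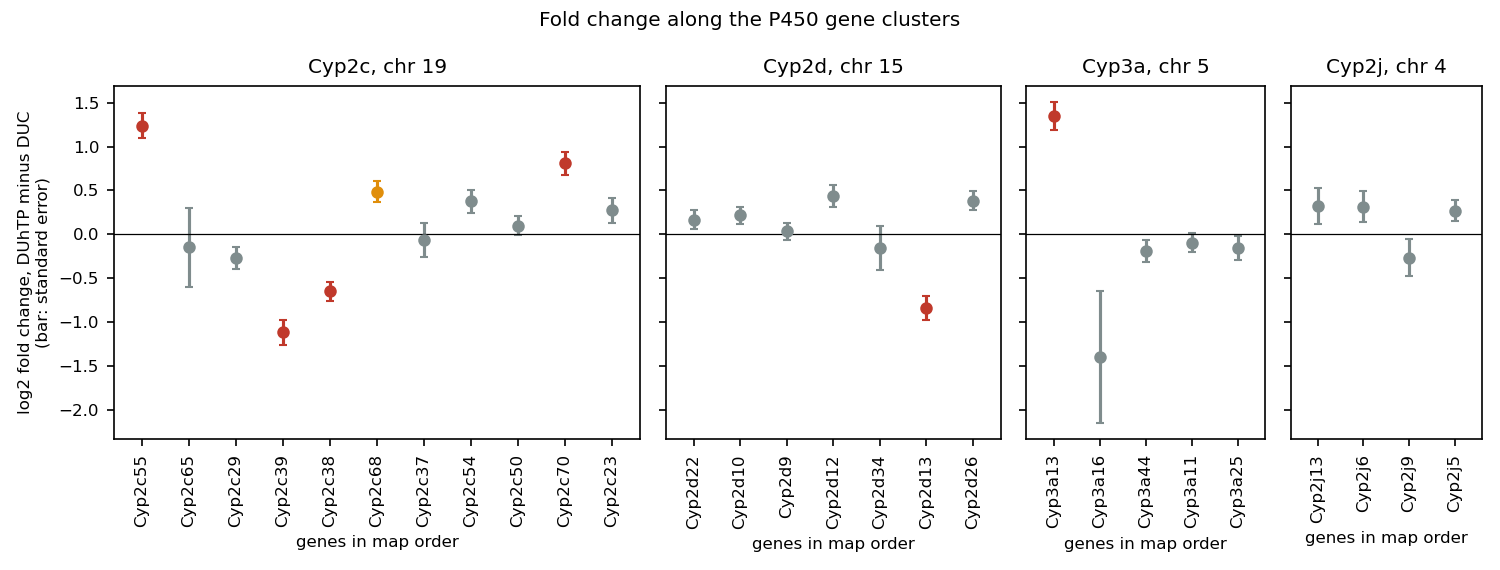
Log2 fold change (DUhTP minus DUC, bars are standard errors) of each gene's brightest probe set, with the genes of the Cyp2c, Cyp2d, Cyp3a and Cyp2j subfamilies in map order. Red marks adjusted p under 0.05 and orange a call only with 16 added; Cyp2c55 (1.24) and Cyp2c70 (0.81) stand above zero at both ends of the Cyp2c cluster, and Cyp2c39 (-1.12) and Cyp2c38 (-0.65) below it between them.

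Cyp2c38 and Cyp2c39 fell together, and their neighbour Cyp2c29 was lower without passing the test (FC -1.21). The 150 bases ahead of their annotated starts are printed with those of the 2 Cyp2c genes that rose. The windows come from RefSeq (GRCm38.p6), each written along the strand of its gene. They are reference sequence, not read from DUhTP or DUC mice, and so cannot show a difference between the lines. Capitals mark a TATA box, searched as TATAAA on both strands, or the element CAAAGTCCA, a binding sequence of the receptor HNF4, also on both strands. RefSeq gives Cyp2c39 a pair of starts, which lie on either side of the start of Cyp2c38. The map order of Cyp2c39 and Cyp2c38 therefore depends on which start is taken.
Cyp2c29, chr19:39286935-39287084, plus strand: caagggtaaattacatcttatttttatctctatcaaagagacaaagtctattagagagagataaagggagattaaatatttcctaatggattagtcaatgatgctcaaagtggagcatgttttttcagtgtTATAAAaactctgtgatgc
Cyp2c39, start 1, chr19:39347196-39347345, plus strand: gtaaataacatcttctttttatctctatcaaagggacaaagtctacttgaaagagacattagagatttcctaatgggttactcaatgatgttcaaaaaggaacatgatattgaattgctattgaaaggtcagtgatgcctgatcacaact
Cyp2c39, start 2, chr19:39510672-39510821, plus strand: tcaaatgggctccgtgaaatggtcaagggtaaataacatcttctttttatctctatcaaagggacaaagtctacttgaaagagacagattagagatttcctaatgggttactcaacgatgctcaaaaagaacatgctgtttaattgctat
Cyp2c38, chr19:39463076-39463225, minus strand: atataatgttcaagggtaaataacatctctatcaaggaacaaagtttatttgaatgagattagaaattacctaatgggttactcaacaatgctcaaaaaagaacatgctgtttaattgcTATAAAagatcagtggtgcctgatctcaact
Cyp2c55, chr19:39006869-39007018, plus strand: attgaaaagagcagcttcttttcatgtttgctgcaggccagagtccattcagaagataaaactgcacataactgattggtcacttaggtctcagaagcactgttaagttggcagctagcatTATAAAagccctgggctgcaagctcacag
Cyp2c70, chr19:40187287-40187436, minus strand: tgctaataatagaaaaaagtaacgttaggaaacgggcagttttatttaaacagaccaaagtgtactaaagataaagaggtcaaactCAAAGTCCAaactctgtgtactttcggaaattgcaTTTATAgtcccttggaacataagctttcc

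The windows of Cyp2c38 and Cyp2c39 (start 1) were identical at 76.6% of alignment columns, gap columns included (118 of 154). That of Cyp2c29, whose transcript did not pass the test, was 68.7% identical to Cyp2c39 (start 1) and 61.6% identical to Cyp2c38. For start 2 of Cyp2c39 the values were 62.6% with Cyp2c38 (112 of 179 columns) and 61.8% with Cyp2c29 (107 of 173). A column opposite a gap counts as not identical, so a shift of one window against another lowers the value. These values therefore do not rank the starts of Cyp2c39 by likeness of sequence. The windows of Cyp2c55 and Cyp2c70 were 53.5% identical to each other, while Cyp2c windows and the Cyp3a windows printed below reached up to 50.9%. TATAAA was found in 14 of the 31 RefSeq promoters of 28 member genes, compared with 7.57% of all 32851 promoters of the same length. CAAAGTCCA occurred in 5 of the 31 (those of Cyp2c65, Cyp2c68, Cyp2c70, Cyp3a11 and Cyp3a16) and in 0.271% of all promoters. The 5 genes include 1 that rose (Cyp2c70), 1 called only with 16 added (Cyp2c68) and 3 that passed neither test. A match describes these letters and does not show a working site, and the absence of a match says only that the letters are not in this window.

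Cyp2c39, an arachidonic acid epoxygenase that also hydroxylates retinoic acid, had intensities of 625, 462 and 594 in DUhTP and 1216, 1229 and 1177 in DUC. Every DUhTP array was clearly below every DUC array. The means were 560.2 ± 86.2 and 1207 ± 27.1 (SD, n = 3), which gives a log2 fold change of -1.12 ± 0.15 (SE), a 95% interval of -1.48 to -0.76 and an adjusted p of 0.0290 (limma). With 16 added the FC was -2.14 and the adjusted p was 0.00107. Leaving out any 1 array lifted the adjusted p to between 0.0523 (without DUhTP array 2) and 0.128 (without DUC array 3), while the log2 fold change stayed between -1.20 and -0.99.

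Cyp2c38, a second arachidonic acid epoxygenase, read 397, 433 and 427 in DUhTP against 674, 692 and 609 in DUC. The lines did not overlap and the arrays of each line lay close together. Means were 419 ± 18.9 and 658 ± 44.0, with a log2 fold change of -0.65 ± 0.11, FC -1.57 and an adjusted p of 0.0479 (limma). This was the adjusted p nearest to the threshold among the 6, and it rose to 0.0946 to 0.174 when 1 array was left out. With 16 added the adjusted p was 0.00749. Cyp2c29, the adjoining gene, known for induction through CAR and for pericentral expression, had 6265, 7907 and 6643 in DUhTP and 8296, 8303 and 8477 in DUC. Its arrays did not overlap either, but DUhTP array 2 lay near the DUC arrays and the test was not passed (FC -1.21, adjusted p = 0.282).

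Cyp2c55, which hydroxylates arachidonic acid and is inducible through CAR and PXR, was dim in both lines. Intensities were 78.1, 98.2 and 93.9 in DUhTP and 41.1, 34.8 and 38.2 in DUC. The DUhTP arrays all stood well above the DUC arrays. The log2 fold change was 1.24 ± 0.14 with an interval of 0.90 to 1.58 and an adjusted p of 0.0210 (limma). Since the probe set is dim, the size depends on the scale, and FC was 2.36 as deposited but 1.96 with 16 added (adjusted p = 0.00123). Without DUhTP array 1 it stayed below the threshold (0.0467), and without any other array it ranged from 0.0576 to 0.107.

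Cyp2c70, the enzyme that turns chenodeoxycholic acid into the muricholic acids of rodent bile, was bright in all samples. It read 7156, 7051 and 7030.1 in DUhTP and 4713, 3804 and 3674 in DUC. DUhTP arrays were tightly grouped, whereas DUC array 1 was above the other two. Means were 7079 ± 67.5 and 4064 ± 566, with a log2 fold change of 0.81 ± 0.13 and an adjusted p of 0.0448 (limma). With 16 added the FC was the same (1.75) and the adjusted p was 0.00406. Without DUC array 1 the log2 fold change was at its highest, 0.92, and over the 6 omissions the adjusted p ranged from 0.0768 to 0.160.

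Cyp2c68 had 4855, 5303 and 5231 in DUhTP and 4096, 3493 and 3441 in DUC. The lines did not overlap, with DUC array 1 again the highest of its line. The FC was 1.40, with an adjusted p of 0.102 as deposited and 0.0322 with 16 added, and the latter call held in 1 of 6 omissions (highest adjusted p 0.127). Cyp2c54 showed FC 1.30 without overlap of the arrays but with an adjusted p of 0.184. Cyp2c23, Cyp2c37 and Cyp2c50, bright in both lines, had FC 1.21, -1.05 and 1.07 and adjusted p values of 0.337 to 0.882. Cyp2c65 was under 20 on every array, and no difference could be resolved there (log2 fold change -0.15, interval -1.27 to 0.97).

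The Cyp3a subfamily, which oxidises a broad range of drugs and steroids, had 1 gene that rose and 4 that did not pass the test. Cyp3a13, a member expressed in liver and intestine, lies apart from the other measured Cyp3a genes on chromosome 5. Its intensities were 2347, 1682 and 2261 in DUhTP and 818, 816 and 808 in DUC. The DUC arrays were nearly equal, and the lowest DUhTP array, array 2, was still far above them. Means were 2097 ± 362 and 814 ± 5.25, with a log2 fold change of 1.35 ± 0.16, an interval of 0.96 to 1.74 and an adjusted p of 0.0228 (limma). With 16 added the FC was 2.52 and the adjusted p 5.44e-04. Without DUhTP array 2 the adjusted p was 0.0313, and without any other array it lay between 0.0704 and 0.111.

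Cyp3a11, the main PXR-inducible Cyp3a of adult male mouse liver, read 10756, 9507 and 9986 in DUhTP and 10153, 10805 and 11359.6 in DUC. The lines overlapped, and the log2 fold change was -0.10 with an interval of -0.37 to 0.18 (adjusted p = 0.672, limma). Cyp3a25 (FC -1.11) and Cyp3a44 (FC -1.14) had adjusted p values of 0.570 and 0.451. Cyp3a16 was at most 5.09 on every array, so that its log2 fold change of -1.40 had an interval from -3.26 to 0.45. The median of the 5 genes was -0.16, and -0.05 without DUhTP array 2. To show how far the member that rose and the main member differ ahead of their starts, both windows are given, with CAAAGTCCA in capitals. They were identical at 51.8% of alignment columns, gap columns included. That is little above the 45.0% to 50.9% between the printed Cyp2c windows and these Cyp3a windows.
Cyp3a13, chr5:137921620-137921769, minus strand: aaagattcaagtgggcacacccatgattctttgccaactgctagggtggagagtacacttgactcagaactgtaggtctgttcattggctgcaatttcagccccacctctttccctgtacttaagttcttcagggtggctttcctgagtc
Cyp3a11, chr5:145879855-145880004, minus strand: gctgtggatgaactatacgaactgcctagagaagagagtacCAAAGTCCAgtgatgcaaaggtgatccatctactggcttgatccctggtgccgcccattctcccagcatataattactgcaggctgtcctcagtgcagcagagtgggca

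Among the 7 Cyp2d genes, relatives of the human debrisoquine hydroxylase, only Cyp2d13 passed the test. Its probe set 1425365_a_at read 493, 493 and 458 in DUhTP and 774, 1007 and 821 in DUC. Its probe set 1431803_at read 144, 110.4 and 148 in DUhTP and 225, 291 and 283 in DUC. On both, every DUhTP array was below every DUC array, and DUC array 2 was the highest. The first gave means of 481 ± 19.9 and 867 ± 123, a log2 fold change of -0.84 ± 0.14 and an adjusted p of 0.0448 (limma). The second had a log2 fold change of -0.99 ± 0.17 with an adjusted p of 0.0521. With 16 added the adjusted p values were 0.00411 and 0.00485. Leaving out 1 array raised the adjusted p of the first to between 0.0985 and 0.150. In the study's own qRT-PCR Cyp2d13 was also lower in DUhTP, but the difference was not significant. The study likewise listed 1431803_at as lower without marking it as significant.

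The other Cyp2d genes had a different sign for the most part. Cyp2d10 read 8239, 7794 and 8212 in DUhTP and 6844, 6989 and 6998 in DUC, without overlap (FC 1.16, adjusted p = 0.270). Cyp2d12 (FC 1.35, adjusted p = 0.133) and Cyp2d26 (FC 1.30, adjusted p = 0.130) were likewise apart and not past the threshold. Cyp2d22 had FC 1.12 and 1.07 on its 2 probe sets. Cyp2d9, the testosterone 16-alpha-hydroxylase typical of male liver, had a log2 fold change of 0.03 with an interval of -0.22 to 0.28. Cyp2d34 was under 50 on every array. The median of the subfamily was 0.17, and 5 of the 7 genes were above zero.

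None of the 4 Cyp2j genes passed the limma test or had an unadjusted p under 0.05. Cyp2j5, an arachidonic acid epoxygenase of liver and kidney, read 3175, 2784 and 3111 in DUhTP and 2688, 2518 and 2328 in DUC on its brighter probe set. The lines did not overlap there, but the spread left an adjusted p of 0.263 (FC 1.20). Its dimmer probe set gave FC 1.48 with an adjusted p of 0.241 and overlapping arrays. Cyp2j6 (FC 1.24), Cyp2j13 (FC 1.25) and Cyp2j9 (FC -1.20) were dim, with adjusted p values of 0.371 to 0.526. The median of the 4 genes was 0.29.

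Of the Cyp1 family, the dioxin-responsive P450s, no gene was called by limma, and 1, Cyp1a2, had an unadjusted p under 0.05. Cyp1a2, the constitutive hepatic member that oxidises caffeine and oestrogens, read 5684, 5051 and 5242 in DUhTP and 4318, 4215 and 4351 in DUC. The lines did not overlap, and the FC was 1.24 with an interval of the log2 value of 0.05 to 0.56 and an adjusted p of 0.173 (limma). Cyp1a1, which is low in liver unless AHR is activated, was between 17.6 and 51.3 on all arrays (FC -1.39, adjusted p = 0.510). Cyp1b1, a mainly extrahepatic member, read 41.0, 45.4 and 38.8 in DUhTP and 46.3, 34.6 and 37.5 in DUC on its brightest probe set. Its 3 probe sets had adjusted p values of 0.782 to 0.966.

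Some Cyp2 genes were the only members of their subfamily here. None of them passed the limma test, and only Cyp2g1 had an unadjusted p under 0.05. Cyp2e1, which oxidises ethanol and paracetamol, read 10970.1, 11320.1 and 12019 in DUhTP and 12191, 12246 and 11686 in DUC. The lines overlapped, and the log2 fold change was -0.08 (interval -0.32 to 0.17, adjusted p = 0.725). Cyp2f2, which activates naphthalene, read 10102, 9934 and 10367 in DUhTP and 9276, 9049.8 and 8625 in DUC, apart but only by FC 1.13 (adjusted p = 0.371). Cyp2a12, which hydroxylates bile acids and steroids, read 5232, 4883 and 5008 in DUhTP and 5026, 4938 and 4775 in DUC, with FC 1.03. The widest of these differences was in Cyp2g1, a P450 of olfactory mucosa that female mouse liver also makes. It read 117, 174 and 148 in DUhTP and 90.3, 87.6 and 106 in DUC, without overlap (FC 1.53, adjusted p = 0.141, and 0.0504 with 16 added). Cyp2s1 was dim, at 42.5, 52.4 and 35.7 in DUhTP and 42.4, 39.9 and 42.4 in DUC.

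**Figure D3:**
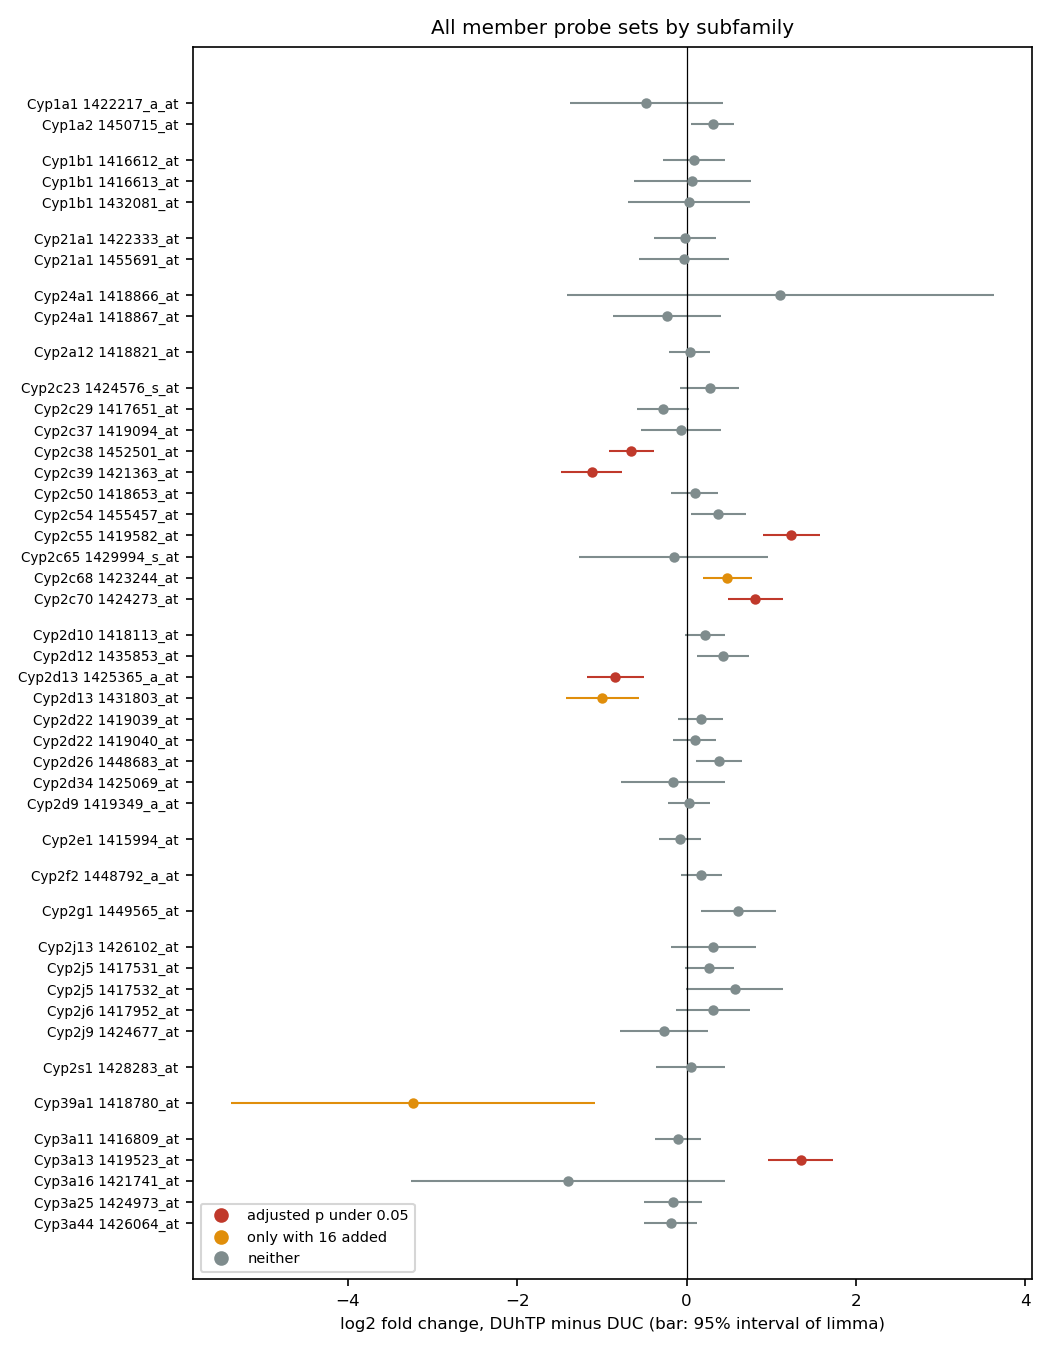
Log2 fold change (DUhTP minus DUC) of all 45 member probe sets by subfamily, with 95% intervals from limma. Red marks the 6 probe sets with adjusted p under 0.05 and orange the 3 that passed only with 16 added; most others lie near zero, and the widest intervals belong to dim probe sets (Cyp24a1, Cyp3a16) and to Cyp39a1.

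On every array 18 of the 45 probe sets exceeded 1000, as did 5.82% of all tested probe sets, and 14 were under 100 on every array. Of the 18, 1 was called, Cyp2c70, beside 2.41% of all probe sets. In all, 33 of 45 had a log2 fold change smaller than 0.5 in either direction, as had 77.1% of all tested probe sets.

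**Figure D4:**
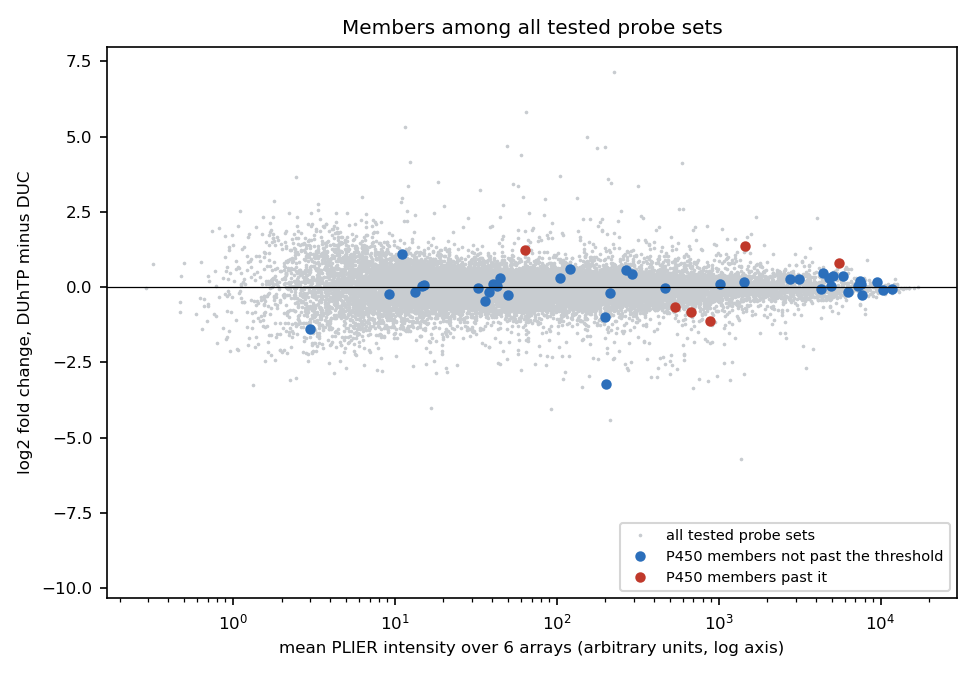
Log2 fold change (DUhTP minus DUC) against mean PLIER intensity over 6 arrays (log axis) for all 22626 tested probe sets in grey and the 45 P450 probe sets in colour. The 6 called members in red lie between Cyp2c55, a dim probe set, and Cyp2c70, a bright one, and the spread of all probe sets widens toward low intensities.

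Among the 3 genes of other families, Cyp39a1, which 7-alpha-hydroxylates 24-hydroxycholesterol, had the most negative fold change of all 45 probe sets. It read 95.4, 8.96 and 59.0 in DUhTP and 309, 441 and 304 in DUC. Every DUhTP array was below every DUC array, but the DUhTP arrays differed among themselves, as ratios, by more than those of any called member. The log2 fold change was -3.23 ± 0.88 with an interval of -5.38 to -1.08 and an adjusted p of 0.121 (limma). With 16 added the FC fell from -9.36 to -6.11 in size and the adjusted p was 0.00672, and the call then held without any 1 array (highest 0.0374). Without DUhTP array 2 the log2 fold change as deposited was -2.20. For the exocrine pancreas markers, as for Cyp39a1, DUhTP array 2 was the lowest of its line and DUC array 2 the highest. Ctrb1 (chymotrypsinogen) read 460.1, 36.0 and 186 in DUhTP and 754, 1757 and 1318 in DUC. Cela1, by contrast, overlapped between the lines, at 1213, 756 and 1064 in DUhTP and 846, 1429 and 1029 in DUC (limma, FC -1.08, adjusted p = 0.842). Of the 6 pancreas markers measured, 0 were called in limma as deposited (3 at an unadjusted p under 0.05) and 2 fell with 16 added, and none was under 100 on every array. Their part in the Cyp39a1 value was not tested.

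Cyp21a1, the steroid 21-hydroxylase of the adrenal, read 465, 488 and 429 in DUhTP and 427, 423 and 557 in DUC on its brighter probe set, with overlap (adjusted p = 0.966). Cyp24a1, which inactivates vitamin D hormone, read 9.39, 10.9 and 18.1 in DUhTP and 1.08, 15.6 and 11.0 in DUC. At these intensities no difference could be resolved (log2 interval -1.42 to 3.63). The 2 further probe sets of these genes were also dim and had adjusted p values of 0.961 and 0.659.

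**Figure D5:**
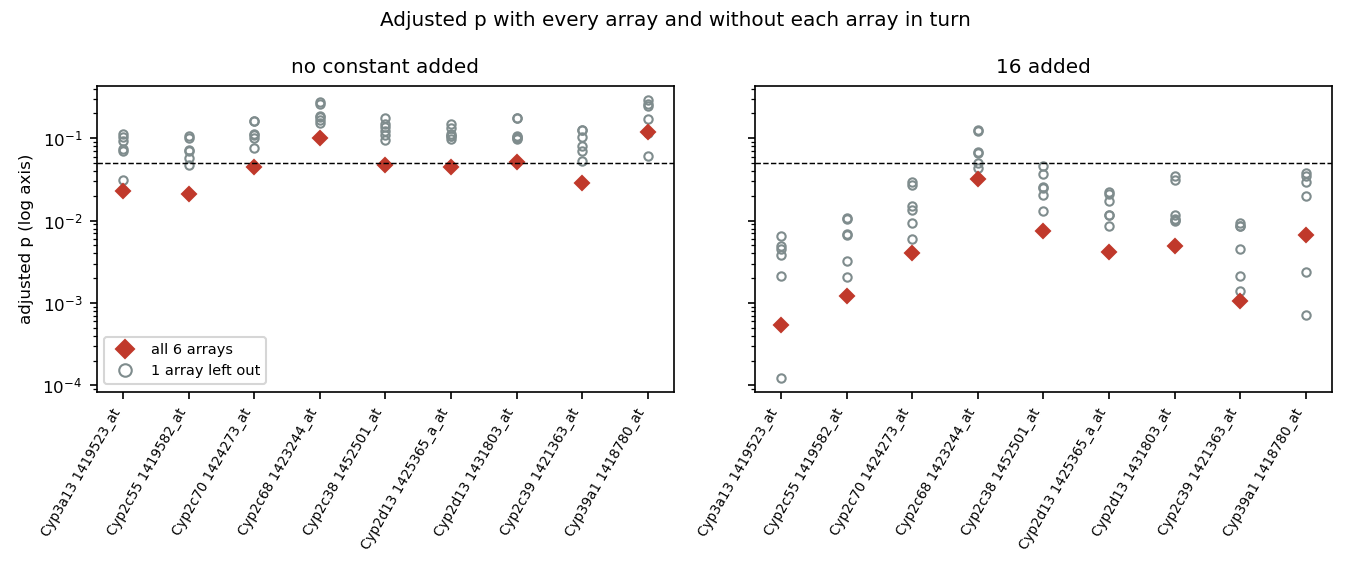
Adjusted p (log axis) of the 9 P450 probe sets with all 6 arrays (red diamonds) and without each array in turn (open circles), as deposited on the left and with 16 added on the right. The dashed line is the threshold of 0.05; on the left only 2 of the open circles lie under it, Cyp3a13 at 0.0313 and Cyp2c55 at 0.0467, while on the right all circles except 5 of Cyp2c68 do.

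Genes around the P450s were counted in lists drawn from general knowledge. Of the xenobiotic receptors and their partners, 17 of 19 genes were measured, 1 rose and 0 fell, with a median log2 fold change of -0.11. The gene that rose was Nr0b2 (SHP), a repressor of bile acid synthesis, at 768, 679 and 766 in DUhTP and 219, 349 and 299 in DUC (FC 2.60, adjusted p = 0.0325). With 16 added Cebpb (1418901_at, FC -1.86) and Hnf4a (1427000_at, FC -1.57), regulators of hepatocyte genes, were lower as well (adjusted p = 0.00953 and 0.00948). The receptors Nr1i2 (PXR) and Nr1i3 (CAR) did not pass either test, with FC -1.14 and -1.19 for Nr1i2 and -1.05 for Nr1i3. Ahr had FC -1.45 and 1.04 on its 2 probe sets. Of 4 AHR targets measured outside the P450s 0 were called by limma under either scale, nor did any reach an unadjusted p under 0.05. All 4 were under 100 on every array, where a change is hard to resolve.

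Of the electron partners and heme genes 10 of 11 were measured, 1 rose and 1 fell. Cyb5b, a cytochrome b5 of the outer mitochondrial membrane, averaged 1083 ± 55.8 in DUhTP and 610.5 ± 42.8 in DUC (adjusted p = 0.0310). Alas1, the first and rate-limiting enzyme of heme synthesis in liver, read 540.2, 686 and 566 in DUhTP and 1567, 1237 and 1877 in DUC on 1455282_x_at. Its arrays did not overlap, and it fell with FC -2.59 (adjusted p = 0.0322), while 1424126_at gave FC -2.32 and an adjusted p of 0.0652. With 16 added Cyb5r3 also rose (1422185_a_at, FC 1.42) and Fech also fell (1449181_at, FC -1.36), although the other Fech probe sets and the Cyb5r3 probe set 1430734_at (FC -1.71) had the opposite sign.

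Of other oxidative phase I enzymes 11 of 13 were measured. Aox3, an aldehyde oxidase, rose from 887 ± 71.7 to 1971 ± 99.8 (adjusted p = 0.0166). The flavin monooxygenase Fmo2 fell on 1422905_s_at from 61.6 ± 15.4 to 15.4 ± 3.78 (adjusted p = 0.0290), but its other probe sets did not pass (1422904_at with an adjusted p of 0.572, 1454005_at with 0.999). Aox1 (higher) and Fmo5 on 1421709_a_at (lower) passed only with 16 added, with FC 1.39 and -1.58.

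Liver zonation and sex bias were covered by lists that also hold some members. Of 9 pericentral genes measured, the transporters Rhbg (FC 2.04, adjusted p = 0.0251) and Slc1a2 (FC 2.33, adjusted p = 0.0356) rose, and Axin2 fell on a probe set that was under 5 on every array (1421341_at, FC -4.60). The other Axin2 probe set did not pass as deposited (1436845_at, FC -1.20, adjusted p = 0.545), and with 16 added the call of the first was lost (FC -1.16, adjusted p = 0.228). Cyp2e1, Cyp1a2, Cyp2c29 and Glul, in the same list, did not pass the test, and Oat fell only with 16 added (FC -1.35). Of 5 periportal genes, Pck1 fell (FC -1.73, adjusted p = 0.0290), Arg1 fell only with 16 added (FC -1.50), and Cyp2f2 did not pass. Of 9 P450s predominant in females, 4 were measured. Of these, 0 were called by limma (2, Cyp39a1 and Cyp2g1, at an unadjusted p under 0.05) and Cyp39a1 alone with 16 added. Their median log2 fold change was -0.80. That median lies between Cyp3a16, which is very dim and went from -1.40 to -0.15 with 16 added, and Cyp3a44, at -0.19 and -0.18. That list holds no gene of the Cyp2b subfamily, which the rule leaves out, and the study reported Cyp2b9 as higher in DUhTP. Of 2 P450s predominant in males only Cyp2d9 was measured, and it did not pass the test on either scale. The list of growth hormone signalling and sex bias had 11 of 12 genes measured. In it Socs2, an inhibitor of growth hormone signalling, fell on both probe sets (FC -5.13 and -3.52, adjusted p = 0.0153 and 0.0363). With 16 added Bcl6 and Ghr rose as well, and Igf1 fell on 1 probe set (1437401_at, FC -1.76) while its brightest gave FC 1.29.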

How the data were processed

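Liver RNA of 3 DUhTP and 3 DUC samples was hybridised to 6 arrays. The intensities deposited by the authors are PLIER values on a linear scale from arrays scaled in GCOS 1.1.1; whether a constant had been added and on which days arrays were scanned is not given in the sources used here. Groups follow the strain in the labels. After removal of 64 control probe sets, log2 intensities of 22626 probe sets were fitted with limma 3.58.1 in R 4.3.3 (lmFit, eBayes, line as the only term, two-sided) and p-values were adjusted by Benjamini-Hochberg over all of them. A call is an adjusted p under 0.05. The number of arrays limits the precision, and an exact permutation test of 3 against 3 arrays cannot go below 0.1.

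Probe sets were named from the platform annotation, where 20380 carry 1 symbol, 691 several and 1555 none. All 45 members matched RefSeq by gene number. A gene stands by its brightest probe set in medians. Values in every array are given for members called as deposited or with 16 added and for the brightest probe set of each subfamily, and from the lists around the P450s every gene so called is named. Members and lists were chosen with earlier results of these data known. The fit was tested on simulated data. Alternatives were 16 added, quantile normalization, a filter on dim probe sets, limma-trend, a replicate block, array weights, removal of probe sets ending _s_at or _x_at, omission of each array, and other call rules. Promoter windows were aligned globally with Biopython 1.88 (match 1, mismatch 0, gap -1 and -0.2).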

Additional observations from a re-analysis of the deposited data

How the results depend on the processing

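The 6 called member probe sets became 9 with 16 added (8.62% of all probe sets called), 7 after quantile normalization (3.02%), 9 of 39 without the dimmest 33.3% of probe sets (12.3%) and 7 with array weights (3.05%). Limma-trend called 15 probe sets of 14 genes, beside 10.4% of all probe sets. Without probe sets ending _s_at or _x_at, 3 probe sets of 3 genes passed (Cyp2c39, Cyp2c55 and Cyp3a13) beside 1.93% of all, although neither of the 2 members so removed had been called; the cause was not tested. Requiring FC over 2 left 3 and an unadjusted p under 0.05 gave 14. Leaving out 1 array in turn gave 0 to 1 probe sets and 0 to 1 genes, while calls over all probe sets fell from 546 to between 1 and 122, with fewer arrays in the fit. After the data had been seen, each omission was repeated with 16 added, which gave 8 to 10 probe sets of 7 to 9 genes, beside 3.41% to 7.03% of all probe sets. The median of the Cyp2c genes, 0.10, ranged from 0.048 to 0.26 over the omissions, and that of the Cyp3a genes, -0.16, from -0.23 to -0.054. Genes called in the lists around the P450s numbered 10 as deposited and 21 with 16 added. Over all 12393 genes the calls went from 412 (3.32%) to 1397 (11.3%).

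The replicate numbers of the labels are not known to pair the arrays. Deviations of same-numbered arrays correlated at 0.0034, 0.0048 and 0.0667, and with 16 added at -0.0050, -0.018 and 0.114. The arrays numbered 3 had the highest correlation of all pairs between the lines on both scales. With 3 arrays per line such correlations cannot decide whether arrays were paired. With the number as a replicate block, 0 members and 0 of all probe sets were called by limma, with 11 member genes and 4124 of all probe sets at an unadjusted p under 0.05. With the block and 16 added, also tried after the data had been seen, 8 member probe sets passed, beside 7.96% of all probe sets.

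No called member changed direction under any alternative run. For most alternatives this was fixed beforehand and is no sign of stability. The arrays of called members did not overlap, so omitting an array or adding 16 could not turn their sign. Limma-trend and the replicate block leave the fold change as it is. The sign turned for 11 uncalled probe sets. Over the omissions, with or without 16 added, the log2 fold change of Cyp1b1 ranged from -0.00036 to 0.21 (1416612_at), from -0.23 to 0.32 (1416613_at) and from -0.30 to 0.22 (1432081_at). It ranged from -0.084 to 0.11 (1422333_at) and from -0.21 to 0.14 (1455691_at) for Cyp21a1, from -0.091 to 1.83 for Cyp24a1 (1418866_at) and from -0.22 to 0.082 for Cyp2c37. For Cyp2c65 it ranged from -0.42 to 0.30, for Cyp2d34 from -0.32 to 0.058 and for Cyp2s1 from -0.094 to 0.18. With all arrays the sign turned for Cyp1b1 (1432081_at) with 16 added (-0.0033) and with array weights (-0.032), for Cyp2c65 with array weights (0.0082), and after quantile normalization for Cyp21a1 (0.014 and 0.0010) and Cyp2d9 (-0.014).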
